A study of Mus musculus with 136 samples.

Results

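Expression of 10 genes of the endothelial lineage was measured in mouse embryos and in the visceral yolk sacs that surrounded them, in normal and in diabetic pregnancies. The genes were chosen by name, from what they are known to do, as the principal markers and regulators of endothelium and blood vessel formation: the receptors Kdr, Flt1, Tek and Tie1, the junction and adhesion genes Cdh5, Pecam1 and Esam, the surface genes Cd34 and Eng, and the transcription factor Etv2. The choice was made with earlier results of these data known. All 10 were found by symbol among 47643 genes in the count table.

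The first blood vessels of the mouse form by vasculogenesis: mesodermal cells that carry the receptor Kdr turn on Etv2, a transcription factor of the ETS family, and become angioblasts, which assemble into tubes and then express junction proteins such as VE-cadherin (Cdh5) and PECAM-1. In the yolk sac the same mesoderm gives rise to blood islands, in which endothelium and primitive blood cells arise side by side, beneath a layer of visceral endoderm. The vessels are later remodelled, and angiopoietin signalling through Tek is known to be needed for that step.

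The samples came from NOD mice, a strain whose females develop diabetes without induction, so that the normal and the diabetic pregnancies shared a strain and no drug or transgene was used. Each conceptus gave 1 embryo library and 1 yolk sac library at day 8.5 of gestation. At 5 or 6 somite pairs there were 17 concepti of normal dams (10 litters) and 17 of diabetic dams (9 litters), and at 7 to 9 somite pairs there were 16 of normal dams (7 litters) and 16 of diabetic dams (6 litters, with 7 concepti from 1 litter). Maternal blood glucose at sacrifice was 105 to 164 mg/dl in the normal dams and 423 to 595 mg/dl in the diabetic dams, with 1 conceptus whose label held no number. Littermates shared a dam, and p-values measure the spread between these libraries.

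The libraries of the 66 concepti held between 1017901 and 5658850 unique molecules, with a median of 2302819. The yolk sacs carried the markers of visceral endoderm, with a sum of 10 marker genes whose group medians lay between 20299 and 32285 normalized counts against 449 to 665 in the embryos. Heart muscle genes (6 markers) were the reverse, with group medians between 57.1 and 81.9 in the yolk sacs and between 1228 and 2289 in the embryos. Some libraries stood apart: the yolk sac of conceptus N28M05J held 1476 normalized counts of heart muscle genes, the yolk sac of D28M02I held 939 while its embryo held only 142, the yolk sac of N28M06A had 429 of these together with the highest primitive erythroid sum of its group (23618 against a median of 8642), the yolk sac of D24M15A held 719 counts of the decidual gene Prl8a2, and the embryo of D24M15G held 3362 counts of visceral endoderm genes. Further libraries were also far from their group in these markers and were kept. Each call of the 10 genes below was repeated without these 6 libraries, and a changed call is given beside it. Calls of other genes and markers were not repeated in this way. Among the libraries kept, the yolk sacs of D24M15C, D24M15D, D24M15E and D24M15J held 194, 105, 339 and 141 normalized counts of Prl8a2. They share 1 diabetic litter with D24M15A, and this litter gave 7 of the 16 later concepti of diabetic dams. No yolk sac of a normal dam was above 36.1. Leaving out D24M15A alone keeps the other yolk sacs of this litter in. The sex label differed between embryo and yolk sac in 2 concepti.

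The libraries count the 3′ ends of polyadenylated transcripts, 1 tag per molecule, so levels can be compared between genes without division by transcript length. Levels are given as normalized counts, which are molecule counts divided by a library size factor. In the GRCm38 annotation the 10 genes lie on 8 chromosomes: Kdr at chr5:75932827-75978458 and Flt1 at chr5:147561604-147726011 (both on the minus strand), Tek at chr4:94739289-94874976 (plus) and Tie1 at chr4:118471191-118490061 (minus), Cdh5 at chr8:104101625-104144511 (plus), Pecam1 at chr11:106654217-106750628 (minus), Esam at chr9:37528078-37538319 (plus), Cd34 at chr1:194938819-194961279 (plus), Eng at chr2:32646595-32682669 (plus) and Etv2 at chr7:30633616-30635852 (minus). The 3′ end of Eng overlaps that of Fpgs, an enzyme gene on the opposite strand with a mean of 41.6 counts per embryo library and 65.1 per yolk sac library, and since the strand setting of the counting is not given in the sources used here, counts of Eng may hold reads of Fpgs. Cdh5 and Cd34 overlap antisense genes, of which that at Cd34 had means of 0.0455 and 0.0758 counts and that at Cdh5 was not in the table.

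Promoter sequences are shown for Etv2, Tek and Tie1, whose levels in the yolk sac turned with developmental stage. Each runs 5′ to 3′ on the strand of the gene, from 250 bases before the RefSeq transcription start to 50 bases after it (RefSeq, GRCm38.p6), at chr7:30635803-30636102 for Etv2, chr4:94739039-94739338 for Tek and chr4:118489800-118490099 for Tie1. Capitals mark the letters GGAA, the core that ETS factors are known to read, on either strand (TTCC on the strand shown).
Etv2: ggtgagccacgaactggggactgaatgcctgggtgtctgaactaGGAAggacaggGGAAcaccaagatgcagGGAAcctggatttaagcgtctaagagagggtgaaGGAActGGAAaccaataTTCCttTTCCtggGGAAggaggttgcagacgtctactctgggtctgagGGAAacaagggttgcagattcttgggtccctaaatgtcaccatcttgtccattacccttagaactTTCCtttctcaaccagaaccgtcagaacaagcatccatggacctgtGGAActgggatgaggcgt
Tek: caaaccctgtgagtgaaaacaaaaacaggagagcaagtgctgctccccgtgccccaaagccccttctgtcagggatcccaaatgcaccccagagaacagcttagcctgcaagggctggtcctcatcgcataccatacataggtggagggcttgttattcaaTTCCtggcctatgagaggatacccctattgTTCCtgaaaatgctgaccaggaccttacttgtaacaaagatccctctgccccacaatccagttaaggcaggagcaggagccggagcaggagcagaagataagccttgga
Tie1: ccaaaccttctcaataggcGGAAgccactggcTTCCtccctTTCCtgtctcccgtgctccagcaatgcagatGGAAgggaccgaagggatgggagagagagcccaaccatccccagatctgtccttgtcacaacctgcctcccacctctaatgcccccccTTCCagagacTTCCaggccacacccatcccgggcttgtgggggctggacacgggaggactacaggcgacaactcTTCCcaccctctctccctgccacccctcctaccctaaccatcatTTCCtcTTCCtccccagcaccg
The window of Etv2 held 11 matches, that of Tie1 9 and that of Tek 2. Among 32851 promoter windows of the same length, 96.0% held at least 1 match and the median was 3. A count of 9 or more occurred in 1.59% of the windows and 11 or more in 0.253%. Promoters of 7 of the 10 genes could be matched, and in the other 4 of these Kdr and Cd34 held 5 matches and Flt1 and Eng 4. The longer motif CCGGAA was present once in the window of Kdr and in 14.9% of all windows, and it overlaps the shorter one. A match of letters is a description of the window and shows no binding.

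Expression of the VEGF receptors was higher in the yolk sac than in the embryo at 5 to 6 somite pairs, and for Kdr the difference was no longer detectable at 7 to 9. The direct test of a change in that difference between the stages, given below, did not pass for Kdr in the main fit. Kdr, the main signalling receptor for VEGF-A and the earliest marker of the lineage, was the most abundant of the 10 genes in every group. At 5 to 6 somite pairs its normalized counts in 34 embryos ranged from 243 to 688 with a median of 408, and in 34 yolk sacs from 137 to 825 with a median of 591. At 7 to 9 somite pairs the 32 embryos ranged from 294 to 847 (median 476) and the 32 yolk sacs from 189 to 786 (median 516). The ranges of the tissues overlapped at both stages, and the yolk sac of a conceptus was higher than its embryo in 28 of 34 concepti and then in 19 of 32. The log2 fold change of yolk sac over embryo, from edgeR's quasi-likelihood test across all genes, was 0.52 ± 0.10 (SE, adjusted p = 1.82e-06) at the earlier stage and 0.09 ± 0.09 (95% interval -0.09 to 0.27, adjusted p = 0.365) at the later one.

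Flt1, which binds VEGF-A tightly and in its soluble form holds it away from Kdr, was higher in the yolk sac by similar amounts at both stages, with a change between them of -0.01 (95% interval -0.33 to 0.30) on the log2 scale. Its counts do not separate the soluble from the membrane form. In embryos it ranged from 42.0 to 153 (median 91.0) at the earlier stage and from 40.4 to 168 (median 99.1) at the later stage. In yolk sacs it ranged from 20.8 to 250 (median 162) and from 51.1 to 421 (median 175). Yolk sac levels exceeded those of the embryo in 32 of 34 and in 29 of 32 concepti, with log2 fold changes of 0.98 ± 0.11 (SE, adjusted p = 1.71e-13) and 0.94 ± 0.12 (SE, adjusted p = 1.07e-10). The lowest yolk sac value of Flt1, 20.8, and that of Kdr, 137, came from the same library, N28M06A, which is among those that stood apart.

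The TIE receptors were also enriched in yolk sac, Tek more than any other of the 10 genes. Tek encodes the receptor of the angiopoietins. In embryos its normalized counts lay between 15.4 and 50.9 (median 32.1) at 5 to 6 somite pairs and between 19.4 and 58.4 (median 36.2) at 7 to 9. In yolk sacs they lay between 66 and 207 (median 111) and between 94.8 and 196 (median 135). The lowest yolk sac was above the highest embryo at both stages. The log2 fold change was 1.88 ± 0.08 (SE, adjusted p = 1.69e-33), a 3.68-fold difference, and then 2.05 ± 0.09 (SE, adjusted p = 1.31e-33), or 4.14-fold.

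Tie1, which acts together with Tek and does not itself bind the angiopoietins tightly, was among the 2 lowest of the 10 genes in every embryo group. In embryos it ranged from 0.703 to 10.6 normalized counts (median 6.33) and then from 3.89 to 19.3 (median 10.6), and in yolk sacs from 1.23 to 28.4 (median 11) and from 4.32 to 72.8 (median 20.5). The ranges overlapped, and the yolk sac was higher in 28 of 34 and 28 of 32 concepti. The log2 fold changes were 1.16 ± 0.16 (SE, adjusted p = 5.37e-10) and 1.07 ± 0.15 (SE, adjusted p = 2.31e-09). Single values of Tie1 rest on few molecules: the highest, 72.8, came from 22 counts.

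Among the junction and adhesion genes, Cdh5 and Pecam1 had the largest excess in yolk sac after Tek at both stages, and Esam a smaller one. Cdh5 encodes VE-cadherin, the adhesive protein of endothelial adherens junctions. Its embryo levels ran from 11.6 to 44.4 (median 25) and from 6.51 to 60.7 (median 32.7) at the earlier and the later stage, and its yolk sac levels from 25.8 to 142 (median 80.0) and from 43.3 to 131.8 (median 88.0). The yolk sac was higher in 33 of 34 and 31 of 32 concepti, with log2 fold changes of 1.63 ± 0.11 (SE, adjusted p = 1.04e-22) and 1.44 ± 0.12 (SE, adjusted p = 2.91e-18).

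Pecam1 encodes an adhesion molecule of the contacts between endothelial cells. Embryos held 7.57 to 39.9 normalized counts (median 26.4) at 5 to 6 somite pairs and 13.5 to 37.4 (median 26.2) at 7 to 9. Yolk sacs held 47.6 to 112 (median 80.9) and 41.7 to 93.8 (median 57.9). No yolk sac overlapped with the embryos at either stage. The log2 fold change was 1.76 ± 0.10 (SE, adjusted p = 1.74e-27) among the earlier and 1.27 ± 0.09 (SE, adjusted p = 1.6e-22) among the later concepti.

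Esam encodes an immunoglobulin-like adhesion molecule of endothelial tight junctions. It ranged in embryos from 19.2 to 91.1 (median 54.6) and from 29.3 to 90.6 (median 59.1), and in yolk sacs from 43.2 to 140 (median 87.9) and from 43.0 to 146 (median 84.4). The tissues overlapped, with a higher yolk sac in 32 of 34 and 29 of 32 concepti. Log2 fold changes were 0.78 ± 0.10 (SE, adjusted p = 1.5e-10) and 0.56 ± 0.08 (SE, adjusted p = 1.22e-08).

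The surface genes Cd34 and Eng were also higher in yolk sac, with estimates above those of Esam for Cd34 and below them for Eng. Cd34 encodes a sialomucin found on endothelium and on blood progenitors. Its embryo levels ran from 24 to 84.6 (median 56.8) and from 30.8 to 126 (median 57.3), and its yolk sac levels from 45.5 to 190 (median 93.0) and from 54.7 to 185 (median 95.5). The yolk sac exceeded the embryo in 31 of 34 and 30 of 32 concepti, by a log2 fold change of 0.88 ± 0.10 (SE, adjusted p = 1.73e-12) and 0.70 ± 0.10 (SE, adjusted p = 1.57e-09).

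Eng encodes endoglin, a co-receptor for ligands of the TGF-beta and BMP family. Embryos ranged from 3.49 to 33.8 (median 10.4) and from 3.82 to 32.9 (median 14.3), and yolk sacs from 2.45 to 41.6 (median 17.8) and from 7.43 to 49.8 (median 20.7). The groups overlapped widely, and in 9 concepti of each stage the embryo was the higher one. Log2 fold changes were 0.58 ± 0.16 (SE, adjusted p = 0.000761) and 0.48 ± 0.15 (SE, adjusted p = 0.00283), to which reads of Fpgs may contribute.

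Etv2, the factor that starts the endothelial and blood program, was the single gene of the 10 that was higher in the embryo. Embryos held 31 to 104 normalized counts (median 52.9) at 5 to 6 somite pairs and 33.3 to 95.8 (median 49.8) at 7 to 9. Yolk sacs held 1.06 to 26.4 (median 9.76) and 0 to 14.5 (median 5.75). Every embryo was above every yolk sac. At the later stage 1 yolk sac of a normal dam and 1 of a diabetic dam had no count, which allows up to 3 counts in such a library. The log2 fold change of yolk sac over embryo was -2.34 ± 0.14 (SE, adjusted p = 1.83e-26) and -3.11 ± 0.15 (SE, adjusted p = 3.1e-30), and the mean in embryos was 5.35 times and then 9.44 times that in yolk sacs.

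**Figure D1:**
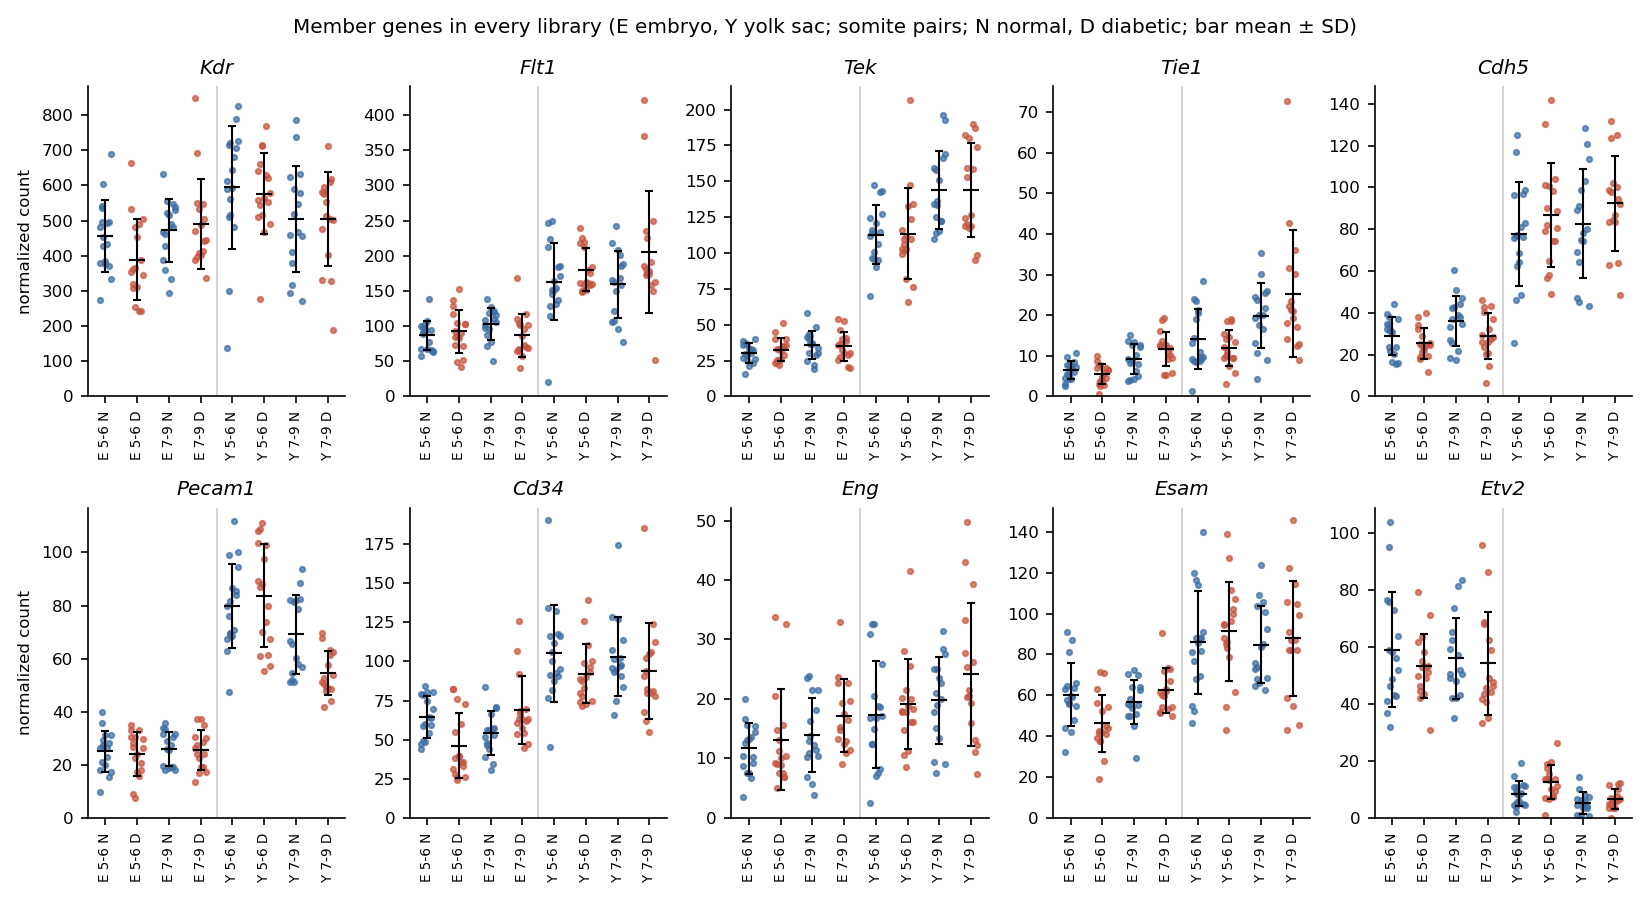
Normalized counts (vertical axes) of the 10 genes in every library, in 8 groups along the horizontal axis (E embryo, Y yolk sac, 5-6 or 7-9 somite pairs, N normal, D diabetic dam), with bars for the mean ± SD. Tek and Pecam1 in yolk sacs sit above all embryos, Etv2 sits below all embryos, and Kdr overlaps throughout.

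In counts, 9 of the 10 genes were higher and 1 lower in yolk sac at 5 to 6 somite pairs, where 79.3% of 11471 tested genes differed between the tissues (38.5% higher and 40.7% lower). At 7 to 9 somite pairs 8 were higher and 1 lower, among 11382 tested genes of which 81.1% differed (39.1% higher and 42% lower). The median log2 fold change over the 10 genes was 0.93 and then 0.82, beside medians of -0.02 and -0.03 over all genes. Because most genes differed, the zero point of this comparison depends on the scaling. Between size factors and total counts, the scaling of the libraries differed by 0.13 and 0.11 on the log2 scale, with total counts toward the embryo. As a plain log2 ratio of levels scaled to total counts, which is not edgeR's fold change, Kdr was at 0.35 and then -0.02. The other 9 genes kept their direction. In bulk tissue, fewer cells of a type and less RNA of a gene per cell cannot be told apart.

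**Figure D2:**
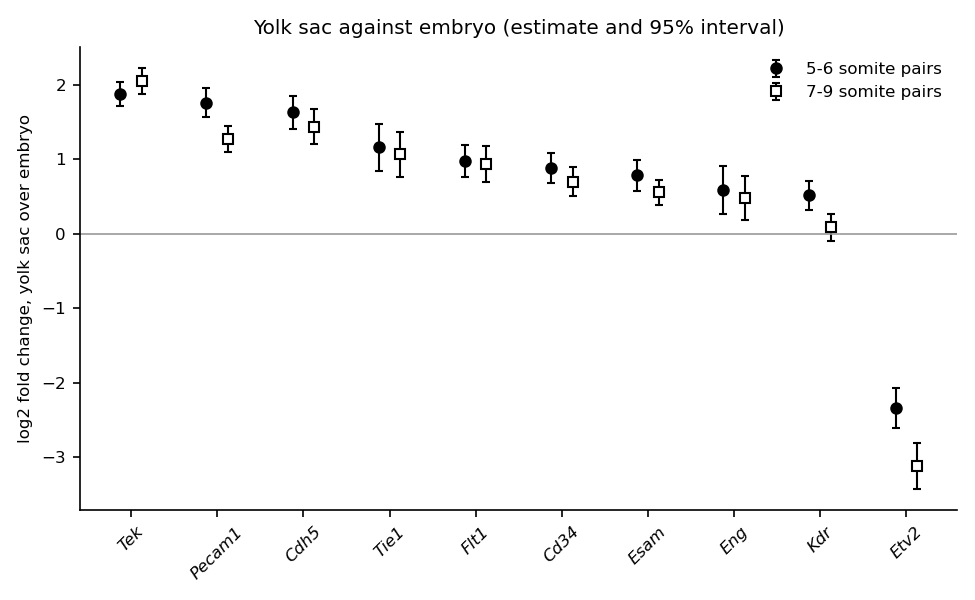
Log2 fold change of yolk sac over embryo (vertical axis) for each of the 10 genes, as the estimate with its 95% interval at 5-6 somite pairs (34 concepti) and 7-9 somite pairs (32 concepti). Tek lies highest at 1.88 and 2.05, Etv2 lies at -2.34 and -3.11, and the interval of Kdr spans 0 at the later stage.

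The order of the 8 groups by mean level was similar for 9 genes, with the 4 yolk sac groups above the 4 embryo groups, and the order was the opposite for Etv2. Within the yolk sac and within the embryo, neighbours in that order differed by less than the larger of their SDs for all 10 genes. The step from the lowest yolk sac group to the highest embryo group (for Etv2 the other way) exceeded the larger SD for Flt1, Tek, Cdh5, Pecam1, Cd34, Esam and Etv2, and did not for Kdr, Tie1 and Eng. Tek illustrates the step: its group means ± SD were 113 ± 20.7 and 113 ± 31.7 in yolk sacs of normal and diabetic dams at the earlier stage (n = 17 each), 144 ± 27.3 and 144 ± 32.6 at the later stage (n = 16 each), and between 30.2 ± 6.76 and 35.9 ± 10 in the embryo groups.

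With developmental stage, 4 of the 10 genes changed in yolk sac, 2 in each direction, which is close to the shares over all genes. The comparison of 7 to 9 with 5 to 6 somite pairs asks how expression changed as the embryo added somites, and it called 40.4% of 10665 genes in yolk sac (20.7% higher and 19.7% lower). Tie1 rose by a log2 fold change of 0.73 ± 0.16 (SE, adjusted p = 0.000217), or 1.66-fold, and Tek rose by 0.35 ± 0.08 (SE, adjusted p = 0.00019), or 1.27-fold. Of the 32 later yolk sacs, 28 lay above the median of the earlier ones for Tie1 and 29 for Tek. Pecam1 fell by 0.42 ± 0.08 (SE, adjusted p = 1.04e-05) and Etv2 by 0.79 ± 0.20 (SE, adjusted p = 0.000964). For each of these only 6 of 32 later yolk sacs lay above the earlier median. The 2 TIE receptors thus moved one way and the early factor Etv2 and the adhesion gene Pecam1 the other. Kdr was at -0.22 ± 0.10 (SE, adjusted p = 0.0862), and without the 6 libraries that stood apart it was called, at -0.24 (adjusted p = 0.0346 in the same edgeR test). The median over the 10 genes was 0.03, beside -0.0032 over all genes. Over the same interval the yolk sacs also changed in the genes of other cell types: 8 of 10 visceral endoderm markers and 4 of 5 primitive erythroid markers rose, and the part of this in the values above was not tested.

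By somite number the change in yolk sac was spread differently among these genes. The mean of Tek was 107 ± 22.1 (SD, n = 24) at 5 somite pairs, 128 ± 30.7 (n = 10) at 6, 126 ± 23.6 (n = 11) at 7, 140 ± 25.7 (n = 13) at 8 and 176 ± 16.5 (n = 8) at 9. Pecam1 stood at 77.8 ± 17.8 and 90.9 ± 13.7 at 5 and 6 somite pairs, and at 59.0 ± 11.2, 61.3 ± 12.4 and 66.3 ± 19.4 at 7, 8 and 9. Tek thus had its highest mean at the last step, while Pecam1, with both conditions pooled, stepped down between 6 and 7 somite pairs. In yolk sacs of normal dams the means of Pecam1 were 75.5, 87.5, 62.3, 73.4 and 75.2 at 5 to 9 somite pairs. In those of diabetic dams they were 79.8, 96.2, 53.2, 56.0 and 51.5. These means rest on 3 to 13 libraries each. The lower level thus lasted to 9 somite pairs in diabetic pregnancies and not in normal ones. The test of that difference between stages, given below, did not pass. The means of Etv2 were 11.7 ± 5.69, 7.63 ± 4.27, 5.51 ± 4.07, 6.47 ± 3.80 and 5.23 ± 2.91, and those of Tie1 were 12.3 ± 5.82, 14.6 ± 6.77, 23.3 ± 18.6, 21.5 ± 9.01 and 23.2 ± 7.41. Etv2 was highest at 5 somite pairs and Tie1 was low at 5 and 6. Fitted as a slope per somite pair, the log2 change was 0.15 for Tek (adjusted p = 5.33e-07), 0.25 for Tie1 (adjusted p = 0.000352), -0.11 for Pecam1 (adjusted p = 0.00177) and -0.30 for Etv2 (adjusted p = 0.000416), in edgeR's test that called 39.1% of 10961 genes (19.5% higher and 19.6% lower).

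In embryos Tie1 was the single gene of the 10 that passed the test between the stages. It rose by 0.79 ± 0.15 on the log2 scale (SE, adjusted p = 2.87e-05), or 1.73-fold, in a comparison that called 30.1% of 11106 genes (14.3% higher). Its means were 5.58 ± 2.21, 6.88 ± 2.60, 11.6 ± 4.72, 10.6 ± 3.79 and 8.63 ± 3.63 at 5, 6, 7, 8 and 9 somite pairs. The other 9 genes lay between -0.03 (Etv2) and 0.31 (Eng), and the median of the 10 was 0.16 beside -0.01 over all genes. As a slope per somite pair, Tie1 at 0.24 (adjusted p = 0.000581), Eng at 0.15 (adjusted p = 0.0319) and Esam at 0.08 (adjusted p = 0.047) passed edgeR's test, which called 25.2% of 11418 genes (12.7% higher). The slope of Eng was not called when litter was entered as a block (adjusted p = 0.0676 with limma) nor without the filter on low counts (0.0687). That of Esam was not called in those same fits (0.116 and 0.118), with DESeq2 (0.0568) or without the 6 libraries that stood apart (0.0672).

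Whether stage changed the tissues unequally was tested as an interaction, which called 3.14% of 11863 genes (1.48% in the negative direction). Etv2 and Pecam1 passed: the difference between yolk sac and embryo moved by -0.76 ± 0.21 for Etv2 (SE, adjusted p = 0.0279) and by -0.46 ± 0.13 for Pecam1 (SE, adjusted p = 0.0331). For Etv2 the medians at the earlier and later stage were 52.9 and 49.8 for the embryos, against 9.76 and 5.75 for the yolk sacs. For Pecam1 the embryo medians were 26.4 and 26.2, against 80.9 and 57.9 for the yolk sacs. The call of Pecam1 was lost without litter D24M15 (adjusted p = 0.0849) or N28M05 (0.0611), and that of Etv2 without litter D28M36 (0.0708), D28M53 (0.105) or N24M29 (0.05005). Kdr was at -0.40 ± 0.14 (SE, adjusted p = 0.0813) and was called, at -0.44 (adjusted p = 0.0367), without the 6 libraries that stood apart. Among genes of other cell types, 4 of 5 primitive erythroid and 4 of 6 heart muscle markers passed the same interaction test, all in the negative direction, and their part in the values of Etv2 and Pecam1 was not tested. Tie1, which rose in both tissues, had an interaction of -0.05 (95% interval -0.45 to 0.35).

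**Figure D3:**
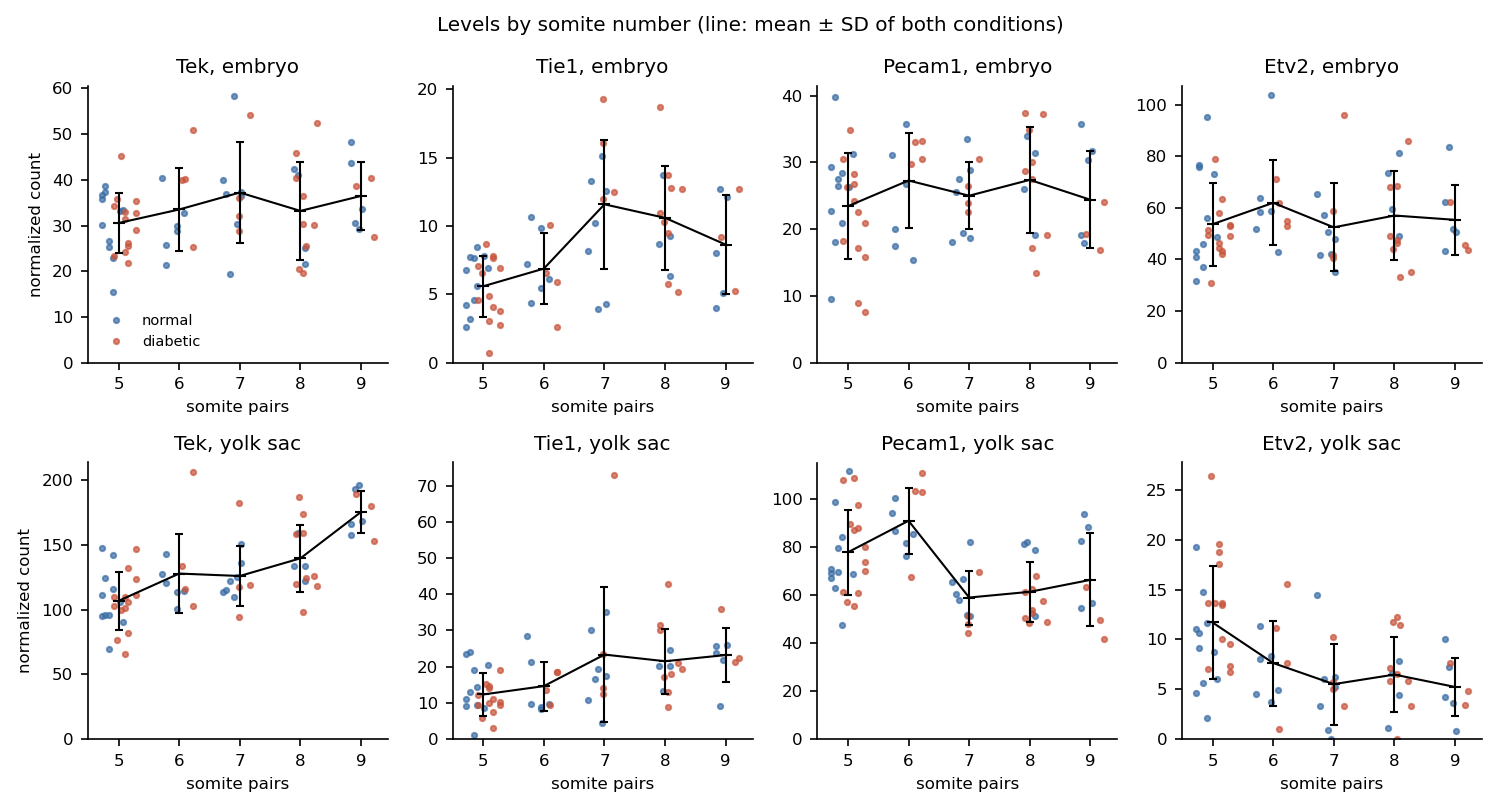
Normalized counts (vertical axes) of Tek, Tie1, Pecam1 and Etv2 against the number of somite pairs (5 to 9) in embryos and yolk sacs, with a point per library colored by the condition of the dam and a line for the mean ± SD of both conditions. In yolk sacs Tek moves from a mean of 107 to 176 and Etv2 from 11.7 to 5.23, while Pecam1 is at 90.9 at 6 and 59.0 at 7 somite pairs.

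Maternal diabetes, the contrast the study was built on, gave no call among the 10 genes in any of 4 comparisons in the edgeR fits, and alternatives that call Cd34 or Flt1 in embryos are given with those genes. In embryos at 5 to 6 somite pairs 0 of 9 tested genes were called (1.46% of 11004 genes were), in embryos at 7 to 9 somite pairs 0 of 10 (9.09% of 10628), in yolk sacs at 5 to 6 somite pairs 0 of 10 (0% of 10250) and in yolk sacs at 7 to 9 somite pairs 0 of 9 (0.0194% of 10317). Tie1 in the early embryos and Etv2 in the late yolk sacs were too low to be tested. At an unadjusted p under 0.05 in edgeR's test there were 2, 1, 1 and 1 of them, and DESeq2 called 0 of the 10 in each comparison. A difference that misses the threshold is not shown to be absent: the 95% intervals for Kdr were -0.47 to 0.02, -0.16 to 0.26, -0.33 to 0.25 and -0.29 to 0.29 in these 4 comparisons, and those for Tek were -0.12 to 0.36, -0.34 to 0.22, -0.21 to 0.24 and -0.22 to 0.22.

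In the early embryos the lowest p-values belonged to Cd34 and Esam. Cd34 ranged from 43.8 to 84.6 (median 63.6) in embryos of normal dams and from 24 to 82.6 (median 38.4) in those of diabetic dams. Its log2 fold change was -0.47 ± 0.15 (SE, p = 0.00442, adjusted p = 0.0937 with edgeR). Esam ranged from 32.2 to 91.1 (median 59.4) and from 19.2 to 71.4 (median 42.4), at a log2 fold change of -0.38 ± 0.14 (SE, adjusted p = 0.116 with edgeR). The groups overlapped, with 13 of 17 embryos of diabetic dams below the normal median for Cd34 and 14 of 17 for Esam. By litter, 8 of 9 diabetic litters were below the median of the normal litters for Cd34 and 9 of 9 for Esam. Kdr and Etv2 also had 9 of 9 litters below and Cdh5 8 of 9, at log2 fold changes of -0.22, -0.13 and -0.17. Tek had 4 of 9 below. This count is therefore not particular to Cd34 and Esam. Cd34 passed the threshold in 2 of the alternatives, with the libraries of both tissues and stages in 1 edgeR fit (-0.48, adjusted p = 0.0306) and without normal litter N24M21 (adjusted p = 0.0490), and not in the others.

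At 7 to 9 somite pairs the sign for Cd34 was the opposite one. Embryos of normal dams ranged from 30.8 to 83.5 (median 54.7) and those of diabetic dams from 45 to 126 (median 63.1), and the log2 fold change was 0.32 ± 0.13 (SE, adjusted p = 0.108 with edgeR). With the number in the sample title as a covariate it was called, at 0.41 (adjusted p = 0.0401), as was Flt1 at -0.43 (adjusted p = 0.0177). All 6 diabetic litters lay above the median of the normal litters. Esam ranged from 29.3 to 72.6 (median 55.4) and from 49.7 to 90.6 (median 61.0), at 0.14 ± 0.10 (SE, adjusted p = 0.338 with edgeR). In the same comparison 3 of 6 heart muscle markers were higher in embryos of diabetic dams, whose sum had a median of 2289 against 1735 normalized counts, and their part in the values of Cd34 and Esam was not tested.

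The change of the diabetic effect between the stages was tested as an interaction in embryos, where 8.7% of 11304 genes were called (4.35% in the positive direction). It passed for Cd34 at 0.81 ± 0.21 (SE, adjusted p = 0.014) and for Esam at 0.54 ± 0.17 (SE, adjusted p = 0.0377). The other 8 genes lay between -0.31 (Flt1) and 0.56 (Tie1), with a median over the 10 genes of 0.10 beside 0.01 over all genes. For Cd34 the call was lost without normal litter N28M06 (0.68, adjusted p = 0.0607). Esam was called without 12 of the 22 litters taken in turn, with adjusted p-values between 0.0181 and 0.1, and was not called without the 6 libraries that stood apart (0.51, adjusted p = 0.0543) or without the filter on low counts (0.0746). Of the heart muscle markers 2 of 6 passed this interaction test, also in the positive direction, which was not tested against the values of Cd34 and Esam.

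Within the early stage the low values fell on 5 somite pairs. The 13 embryos of diabetic dams with 5 somite pairs had a mean of 38.1 ± 15.6 (SD) normalized counts of Cd34 and the 4 with 6 had 72.7 ± 9.47, while the 11 and 6 embryos of normal dams had 61.2 ± 14.6 and 70.3 ± 9.19. For Esam the means were 40.5 ± 9.44 and 65.0 ± 8.03 in embryos of diabetic dams and 60.7 ± 15 and 59.6 ± 17.4 in those of normal dams. At 6 somite pairs the conditions were thus close in both genes, in a small number of embryos. The 4 embryos of diabetic dams with 6 came from litters D24M15, D28M02 and D28M23. Litters such as D28M37 and D28M53 gave embryos with 5 and none with 6, so somite number and litter were not separated here. At the later stage the means of Cd34 in embryos of diabetic and normal dams were 74.7 ± 22.6 (n = 4) and 48.6 ± 12.1 (n = 7) at 7 somite pairs, 69.6 ± 24.4 (n = 9) and 56.5 ± 20.4 (n = 4) at 8, and 58.1 ± 11.5 (n = 3) and 59.8 ± 10.3 (n = 5) at 9. The higher means in diabetic pregnancies thus stood at 7 and 8 somite pairs and not at 9. With somite number and sex as covariates the early difference was -0.46 for Cd34 (adjusted p = 0.0878) and -0.37 for Esam (adjusted p = 0.145 with edgeR).

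In yolk sacs the lowest p-value in the diabetic comparison was that of Pecam1 at 7 to 9 somite pairs. Yolk sacs of normal dams ranged from 51.2 to 93.8 (median 66.1) and those of diabetic dams from 41.7 to 69.5 (median 52.0). Of the diabetic group 14 of 16 lay below the normal median, and all 6 litters did. The log2 fold change was -0.36 ± 0.10 (SE, p = 0.00119, adjusted p = 0.236 with edgeR and 0.0852 with DESeq2), so it did not pass once all genes were counted. At 5 to 6 somite pairs Pecam1 was at 0.07 ± 0.11 (SE), and the change between the stages was -0.42 ± 0.15 (SE, adjusted p = 0.736 with edgeR). Flt1 at the later stage was at 0.34 ± 0.17 (SE, adjusted p = 0.477 with edgeR), with group means of 205 ± 86.7 (SD) and 160 ± 47.6. Etv2 at the earlier stage was at 0.50 ± 0.24 (SE, adjusted p = 0.584 with edgeR), with group means of 12.5 ± 6.04 and 8.49 ± 4.37.

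The difference between the tissues was not shown to change with diabetes for any of the 10 genes. The interaction of tissue and diabetes called 0 of 10 at 5 to 6 somite pairs, where 0% of 11677 genes passed, and 0 of 10 at 7 to 9, where 0.389% of 11577 did. At an unadjusted p under 0.05 in edgeR's test there were 2 at each stage: Etv2 at 0.63 and Esam at 0.49, then Flt1 at 0.56 and Cd34 at -0.48. DESeq2 called 0 of the 10 at either stage. None of the 10 genes was called for a change of the diabetic effect between the stages in yolk sac, where 0% of 10857 genes passed and 1 of the 10, Pecam1, had an unadjusted p under 0.05.

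**Figure D4:**
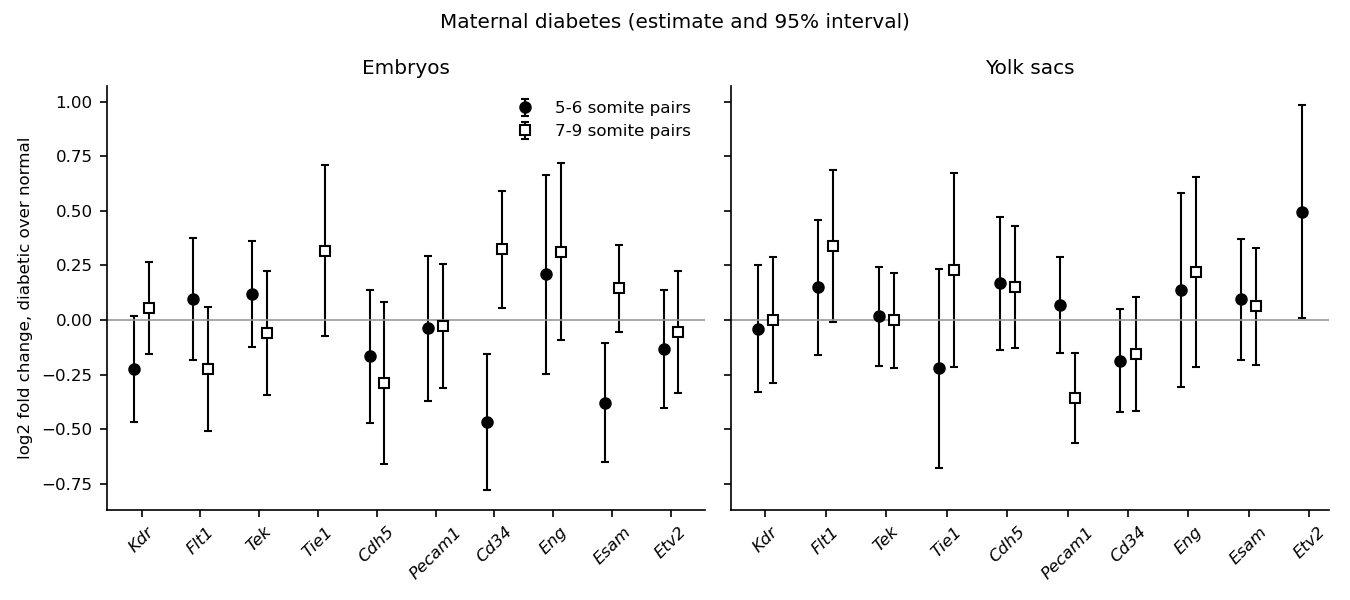
Log2 fold change of diabetic over normal dams (vertical axis) for the 10 genes, as the estimate with its 95% interval, in embryos and yolk sacs at 5-6 (17 against 17) and 7-9 somite pairs (16 against 16). Cd34 lies at -0.47 and 0.32 in embryos, Pecam1 at 0.07 and -0.36 in yolk sacs, and no estimate passes the test after adjustment; 2 estimates are missing, for Tie1 and Etv2, which were too low to be tested.

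Genes that act with the 10 members were read from lists of their pathways. Of the VEGF and angiopoietin ligands and co-receptors 7 of 11 were tested between the tissues at 5 to 6 somite pairs, and 3 were higher and 2 lower in yolk sac, beside 38.5% and 40.7% of all genes. Vegfa, the ligand of Kdr and Flt1, was higher by a log2 fold change of 0.93, with group means between 123 and 158 normalized counts in yolk sacs and between 69.0 and 85.2 in embryos. Pgf, a ligand of Flt1 alone, was lower by a log2 fold change of -1.11, with group means of 3.46 to 6.16 and 10.2 to 14.1. Vegfb, also a ligand of Flt1, had group means between 84.1 and 108 in yolk sacs and between 104 and 131 in embryos, and Vegfc, the ligand of Flt4, between 3.25 and 3.90 and between 7.65 and 10.2. Of the ligands of Tek, the agonist Angpt1 had group means between 32.7 and 36.7 in yolk sacs and between 28.9 and 35.5 in embryos, and the context-dependent ligand Angpt2 had means of 7.70 to 12.3 and 3.51 to 4.36. With stage in yolk sac Angpt2 rose by 0.43 and Vegfa fell by 0.24 on the log2 scale, among 3 of 7 tested genes of the list that rose and 1 that fell.

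Other endothelial genes are set here beside the shares of all tested genes that were higher (38.5%) and lower (40.7%) in yolk sac at 5 to 6 somite pairs. Of 25 tested genes of the endothelial surface and junctions 22 were higher and 1 lower (median log2 fold change 1.22), among them the hyaluronan receptors Lyve1 at 5.44 and Stab2 at 5.26, and Cd93 at 1.83, while the lower one, named after its value was seen, was Emcn at -0.49. Of the endothelial and hemangioblast transcription factors 11 of 16 were higher, such as Tal1 at 1.88, Fli1 at 1.07 and Epas1 at 2.14, and 3 were lower, with Foxc1 at -5.41 and Foxc2 at -4.22, which also act in mesoderm and somites. Of the Notch and arterial-venous genes 5 of 8 were lower (Jag1 at -3.93, Hey1 at -1.66, Efnb2 at -1.61, Notch1 at -1.10) and 2 higher, of which the ligand Dll4 was at 1.31. Of the receptors and targets that work with endoglin, 4 of 6 were higher, with Acvrl1 at 1.02 and Tgfbr2 at 1.85, and the BMP target Id3 was lower at -0.72. Many of the genes in these lists are also expressed outside endothelium.

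With stage in yolk sac, where 20.7% of all genes rose and 19.7% fell, the lists gave the following counts. Of 14 tested factors 5 fell in edgeR's test and the other 9 did not pass: Gata2 by 0.65, Fli1 by 0.47, Hhex by 0.41, Ets1 by 0.34 and Lmo2 by 0.33 on the log2 scale, the direction seen for Etv2. Of 26 surface and junction genes 16 rose and 3 fell, with Lyve1 at 1.24, Clec14a at 1.16 and Stab2 at 1.06, the direction seen for Tek and Tie1 and not for Pecam1. Of 7 Notch and arterial-venous genes 3 fell (Efnb2 by 0.93, Hey1 by 0.74 and Notch1 by 0.41). In embryos 8 of 20 surface genes rose, beside 14.3% of all genes, with Stab1 at 0.98, S1pr1 at 0.68 and Cd93 at 0.55. The diabetic comparison called Hhex in early embryos (-0.58), beside 1.46% of all genes, and Jag1 (-0.49), Nrp2 (-0.32), Acvrl1 (0.62) and Ramp2 (0.32) in late embryos, beside 9.09%. These single calls are not read as an excess over those shares. With litter as a block the count over all genes was 4 in place of 161 in early embryos and 314 in place of 966 in late embryos. Whether the calls of Hhex, Jag1, Nrp2, Acvrl1 and Ramp2 hold in that fit was not recorded.

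Variation between libraries of the same group shows how far the 10 genes move together. Deviations from the group means on the log2 scale were correlated over 66 embryos and over 66 yolk sacs, which share litters and, within a tissue, the composition of the dissected sample. The correlations were not repeated without the 6 libraries that stood apart. One of these, the yolk sac of N28M06A, held the lowest values of Kdr, Flt1, Cdh5, Tie1 and Eng among the 66 yolk sacs. It can weigh on the values of these genes. In yolk sacs Kdr went with Esam (Pearson's r = 0.66), Cdh5 (0.65), Flt1 (0.64) and Tie1 (0.58), and Eng with Tie1 (0.65), Cdh5 (0.63) and Flt1 (0.61). Cd34 and Pecam1 stood outside this set, with r = 0.41 to each other and -0.13 and 0.10 to Kdr. In embryos Cd34 was instead among the most closely tied, with r = 0.70 to Kdr and 0.64 to Eng, and Eng went with Esam at 0.63. Tek and Etv2 were loosely tied in both tissues, with Tek at 0.22 to Kdr in embryos and 0.38 in yolk sacs and Etv2 at 0.43 and -0.12. Between the embryo and the yolk sac of a conceptus the correlation of a gene ran from -0.11 for Etv2 to 0.23 for Flt1.

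The marker sums of other cell types moved with some members over the same libraries. In yolk sacs the visceral endoderm sum had r = -0.51 with Flt1, -0.45 with Cdh5 and -0.38 with Kdr, and 0.37 with Cd34 and 0.32 with Tek. The primitive erythroid sum had r = -0.50 with Kdr, and the sum of 8 progenitor, megakaryocyte and macrophage genes had r = 0.57 with Eng, 0.56 with Tie1 and 0.53 with Cdh5. The sum of 6 trophoblast and decidua genes had r = 0.48 with Eng, 0.41 with Tie1 and 0.33 with Kdr, and -0.21 with Etv2. In embryos the visceral endoderm sum had r = 0.50 with Tek. The sum of the 8 progenitor, megakaryocyte and macrophage genes had r = 0.51 with Kdr there, at group medians of only 7.19 to 12.6 normalized counts. The yolk sac of N28M06A also had the highest visceral endoderm and primitive erythroid sums of its group. These values were not repeated without it. The part of these cell types in the co-variation was not tested.

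**Figure D5:**
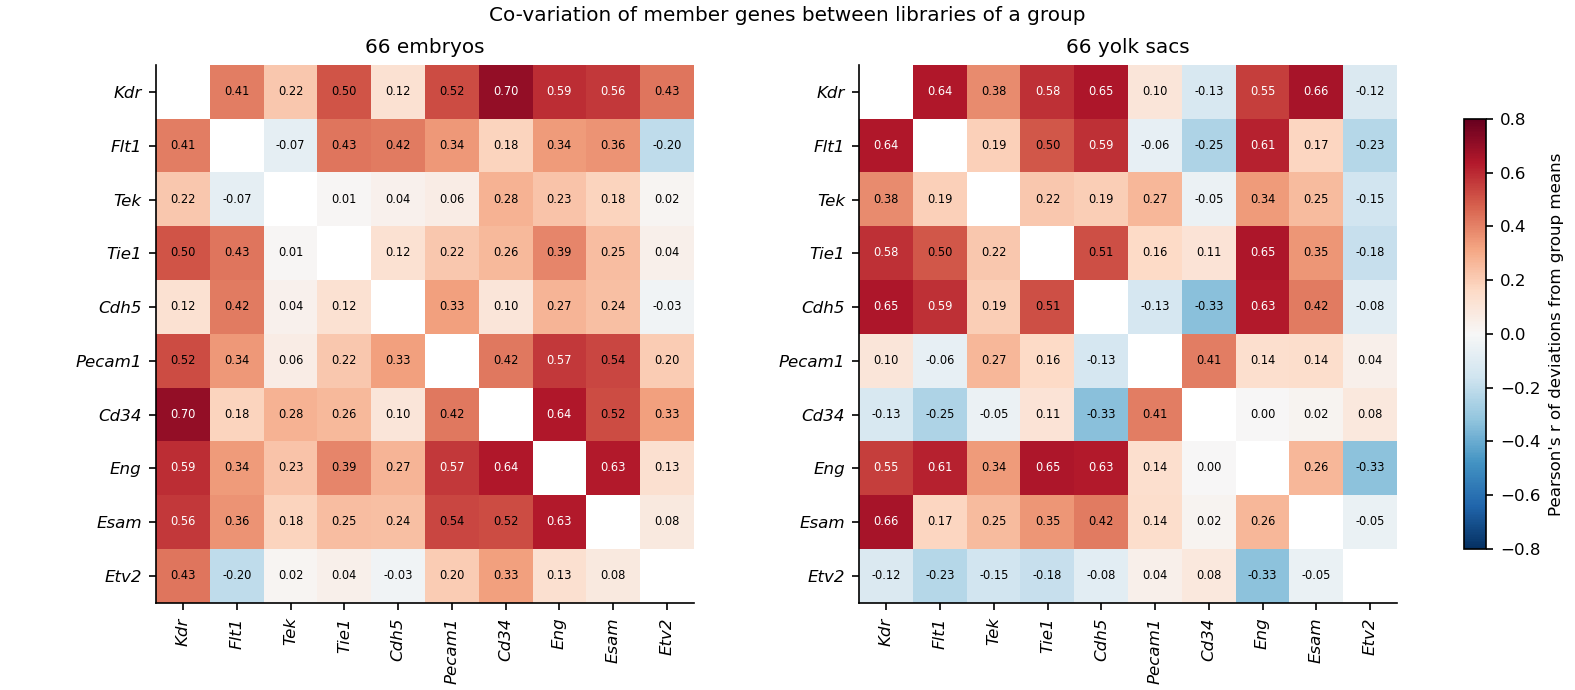
Pearson's r between each pair of the 10 genes, over deviations from group means of log2 normalized counts in 66 embryos (left) and 66 yolk sacs (right), as color and number. Kdr with Cd34 is at 0.70 in embryos and -0.13 in yolk sacs, and Kdr with Cdh5 is at 0.12 and 0.65.

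The genes most like the members were ranked by the correlation of their deviations with the mean deviation of the 9 members that had a mean of at least 10 counts. Among 10863 ranked genes in embryos, the closest were Tgfb2 (r = 0.758), Sh3bp5 (0.741), Col26a1 (0.708), Anxa6 (0.696), Myo18a (0.675), Hk1 (0.672), Fbn2 (0.665), Ets2 (0.664), Cavin1 (0.664) and Rhoj (0.662). Among 10244 in yolk sacs, the closest were Plvap (0.779), Gtf2i (0.778), Cd93 (0.770), Peak1 (0.768), Fbn2 (0.767), Col18a1 (0.762), Klf7 (0.756), Bcl6b (0.751), Ncor1 (0.751) and Meg3 (0.750), of which Plvap, a protein of endothelial diaphragms, and Cd93 are themselves endothelial surface genes. Depth and base composition are shared by all genes of a library, so values of this size are a ranking and no measure of a link. The ranking was not repeated without the 6 libraries that stood apart.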

How the data were processed

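The deposited table holds raw counts of unique molecular identifiers per gene, made by the authors from 3′ mRNA libraries (QuantSeq, forward kit). Per the labels, reads were aligned to mm10 with STAR and counted with HTSeq; versions, annotation release and strand setting are not given in the sources used here. Of 47643 gene rows, 47224 matched GENCODE M21, and 26051 carried no symbol. Re-sequenced duplicates of 4 libraries were left out and added only in an alternative; over 32 pairs with at least 30 counts of a member the median absolute log2 ratio was 0.114.

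From the counts, edgeR 4.0.16 (R 4.3.3, TMM, filterByExpr with a minimum count of 10, quasi-likelihood test) was fitted on the whole table for each of 15 comparisons, and Benjamini-Hochberg adjusted p-values under 0.05 were called. Alternatives used DESeq2 1.42.0 and limma 3.58.1. Normalized counts were counts divided by DESeq2 size factors over all libraries; correlations used log2(normalized count + 1), in Python 3.11.15 with numpy 2.4.6 and pandas 2.3.3. The scripts were checked on simulated counts. The 10 members and the gene lists were chosen with earlier results of these data known. Genes of other lists were named by the smallest adjusted p-values, at most 5 for each list and comparison. The 6 libraries that stood apart were picked after the data were seen, out of 16 libraries with a marker sum more than 4-fold from the group median or with over 100 normalized counts of Prl8a2. The sums scanned were visceral endoderm and heart muscle in both tissues and primitive erythroid in yolk sacs only. Outside this scan, the primitive erythroid sum of embryo D28M36D was 4633 against a group median of 230. That of embryo N24M21E was 1577 against 187, and both embryos were kept. The choice among the 16 followed no fixed limit: yolk sacs as far as 6.65-fold from the median in heart muscle genes were kept.

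An embryo and the yolk sac of the same conceptus are 1 animal, so the conceptus was entered as a block in an alternative. Deviations from the group means correlated within concepti with a median r of 0.131 at 5 to 6 somite pairs (over 0.1 in 18 of 34) and 0.0622 at 7 to 9 (14 of 32).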

Additional observations from a re-analysis of the deposited data

Results flagged for a closer look

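In embryos the effect of maternal diabetes differed between the stages for Cd34 and Esam by a test of the difference itself (edgeR's quasi-likelihood test). For Cd34 the log2 fold change of diabetic over normal dams moved by 0.81 ± 0.21 (SE, adjusted p = 0.014), from -0.47 at 5 to 6 somite pairs to 0.32 at 7 to 9. For Esam it moved by 0.54 ± 0.17 (SE, adjusted p = 0.0377), from -0.38 to 0.14. Neither effect passed the test within a stage in the main edgeR fits. Both interaction calls were lost without certain single litters, as given in the text above. That of Esam was also lost without the 6 libraries that stood apart and without the filter on low counts.

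The effect of stage differed between the tissues for 2 genes. For Pecam1 the log2 fold change of yolk sac over embryo moved by -0.46 ± 0.13 (SE, adjusted p = 0.0331 with edgeR), from 1.76 to 1.27. For Etv2 it moved by -0.76 ± 0.21 (SE, adjusted p = 0.0279 with edgeR), from -2.34 to -3.11. Litters without which these calls were lost are named beside the values in the text above.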

How the results depend on the processing

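Of 35 results for a member that passed the test, 186 of 194 values under other settings kept their direction and their call and 8 lost the call; single litters were left out for 9 of the 35, in the stage comparisons, stage by diabetes in embryos and tissue by stage, where 182 of 198 values kept both. The tissue comparisons and the slopes per somite pair were not run without single litters. The conceptus as a block changed no call of a member in the tissue comparisons. No called value changed sign. Cause was not tested for any change below, except that a filter removed or fewer libraries change what is tested.

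The larger changes in the counts of members called were as follows. Smaller ones are given beside the genes above, such as the calls of Kdr gained without the 6 libraries that stood apart. The slope of Esam in embryos, lost without those libraries and with DESeq2, is another. Diabetic against normal early embryos gave 1 with all libraries in 1 fit and 0 to 1 without single litters, and late embryos gave 2 with the number in the sample title as a covariate (Cd34 and Flt1). The slope per somite pair in embryos gave 1 without the filter and 1 with litter as a block. Stage by diabetes in embryos gave 1 without the filter, 1 without the 6 libraries that stood apart and 0 to 2 without single litters. Without single litters, the stage comparison in embryos gave 1 to 4 and tissue by stage 1 to 3.

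Values that missed the test threshold changed sign in these settings. In late embryos the diabetic log2 fold change of Etv2 was 0.062 on litter sums and 0.084 with the title number. In early yolk sacs Tek was -0.0049 with litter as a block and -0.018 on litter sums. In late yolk sacs Tek was 0.0033 without the filter and 0.0019 in the fit of all libraries, and Kdr was -0.0033 with somite number and sex, -0.039 with the title number and -0.016 without the 6 libraries. In yolk sacs the slope of Flt1 was 0.00078 with litter as a block. Stage by diabetes in yolk sacs, with litter as a block, gave Kdr -0.020, Tek 0.0013, Etv2 0.094, Cd34 -0.024 and Eng -0.16. With the conceptus as a replicate block, tissue by diabetes at the earlier stage gave Eng 0.16. Without the 6 libraries it gave Flt1 -0.028 and Tie1 -0.075, stage by diabetes gave Cd34 -0.049 in yolk sacs and Pecam1 -0.0095 in embryos, and the stage comparison in yolk sacs gave Cd34 0.012.

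Without single litters the values that changed sign ranged as follows. The diabetic comparison gave Pecam1 -0.10 to 0.026, Etv2 -0.23 to 0.0066 and Eng -0.079 to 0.30 in early embryos, Pecam1 -0.078 to 0.039 and Etv2 -0.11 to 0.10 in late embryos, Kdr -0.15 to 0.026, Tek -0.071 to 0.10 and Eng -0.028 to 0.33 in early yolk sacs, and Kdr -0.080 to 0.11, Tek -0.11 to 0.065 and Esam -0.0050 to 0.18 in late yolk sacs. Stage gave Etv2 -0.082 to 0.034 in embryos and Cd34 -0.069 to 0.049 in yolk sacs. Stage by diabetes in embryos gave Pecam1 -0.094 to 0.10, Etv2 -0.042 to 0.25 and Eng -0.098 to 0.40, and tissue by stage gave Flt1 -0.11 to 0.048 and Tie1 -0.16 to 0.019.

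Counts over all genes moved more than the members did. Diabetic against normal early embryos gave 161 genes, 493 with DESeq2, 448 with the title number, 4 with litter as a block, 0 on litter sums and 4 to 675 without single litters. Late embryos gave 966 genes, 1899 with the title number, 314 with litter as a block, 8 on litter sums and 501 to 1067 without single litters. Late yolk sacs gave 2 genes, and 38 with DESeq2, and early yolk sacs 0 and 4. Stage by diabetes in embryos gave 984, 438 without the filter and 370 to 1480 without single litters, and tissue by stage 372 and 203 to 700. Tissue by diabetes at the later stage gave 45, and 222 with DESeq2 and 102 with the conceptus as a block. The tissue comparisons gave 9091 and 9235, and 14180 and 14915 without the filter. Depth limits Tie1, Eng and, in yolk sacs, Etv2, with counts per library down to 1, 2 and 0.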
